A study of Rattus norvegicus with 6 samples.

Results

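The genes described here carry fatty acids through oxidation in mitochondria and peroxisomes and through ketone body formation. They were chosen by symbol from a list of 32 genes, of which 29 have a row among the 25926 features of the deposited liver table, 1 row per gene. Decr2, Eci2 and Acaa1b were not analysed here. All 29 averaged 1 FPKM or more over the 6 rats, the minimum for the test, which 11362 features reached. FPKM divides the fragments of a gene by its length and by the mapped fragments of the library, so that levels can be compared between genes.

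Livers came from 6 Sprague-Dawley rats labelled as 4 weeks old. The 3 controls received 0.9% saline, and the other 3 received total parenteral nutrition (TPN, feeding through a vein) over 7 days and carry the label PNALD, parenteral nutrition-associated liver disease. The labels give neither the composition of the nutrition nor whether the controls ate chow. The labels name rats but do not say in words that each library came from a separate animal, so p-values measure the spread between these 6 libraries, called rats here.

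Long-chain fatty acids are first joined to coenzyme A, then passed into mitochondria as carnitine esters and shortened by repeated rounds of dehydrogenation, hydration, dehydrogenation and thiolysis. Electron transfer flavoprotein hands the electrons of the first step to the respiratory chain. Peroxisomes shorten the longest and the dicarboxylic chains with their own enzymes, and the liver turns surplus acetyl-CoA into ketone bodies for other organs. Many of these genes are known targets of the nuclear receptor PPAR-alpha, and fasting is the textbook setting in which the liver relies on them.

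The clearest differences lay in a few single genes, in both directions, beside a core of enzymes whose values overlapped between the groups. Vnn1 was higher in all TPN rats than in any control, and Acsl1 and Ehhadh were lower. Bdh1 had a 2.05-fold lower mean, with 1 TPN value inside the control range. No member passed limma's test at an adjusted p under 0.05, against 0.246% of all features tested (28 features). Adjusted p-values of the members ran from 0.124 to 0.991. At an unadjusted p under 0.05 there was 1 higher member, Vnn1, against 4.44% of all features, and 2 lower members, Acsl1 and Bdh1, against 7.01%. Groups were without overlap in 1 member that was higher in TPN (8.02% of all features) and in 2 that were lower (9.09%). Together these were 10.3% of members, against 17.1% of all features, so the members did not separate the groups more often than other features. Of the 29 members, 12 had a positive log2 fold change, against 50.9% of all features, and the median was -0.13 against 0.0065 over all features. Single rats moved that median in both directions: it was 0.091 with 18 members positive without TPN 1, -0.24 with 8 positive without control 2, and -0.060 with 11 positive without both. An exact 2-sided permutation test of 3 against 3 rats cannot give a p below 0.10.

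**Figure D1:**
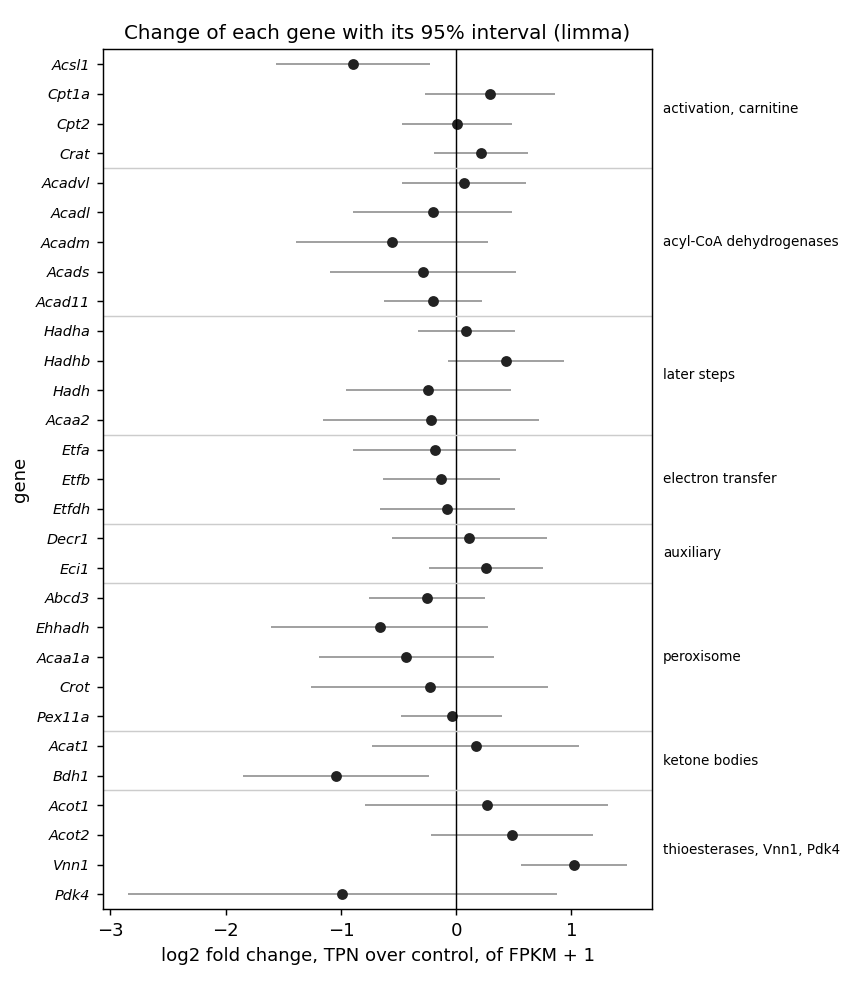
Log2 fold change of FPKM + 1, TPN over control, for each of the 29 genes, grouped by role, with its 95% interval from limma as a line. The intervals of Acsl1, Bdh1 and Vnn1 leave out 0, and that of Pdk4 is the widest.

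The libraries differed within their groups in the acute-phase response, the set of plasma proteins that the liver makes during inflammation. The 14 measured genes of an acute-phase list of 16 held 3.75%, 10.4% and 3.98% of all FPKM in controls 1, 2 and 3 and 20.3%, 9.11% and 7.31% in TPN 1, 2 and 3. The hepatocyte markers, 10 of 10 measured, summed to 61310 to 82930 FPKM in the controls and 40470 to 67980 in the TPN rats. Their median log2 fold change was -0.56, with 7 negative and 3 positive. Alb was the largest of them in every rat, from 32506 to 48388 FPKM in the controls and 12828 to 39337 in TPN. The positive markers Apob, Apoa1 and Serpina1 (0.31, 0.17 and 0.12) were highest of all rats in TPN 1. Macrophage markers, 8 of 8 measured, summed to between 315 and 480.3 FPKM in the controls and between 413 and 681 in the TPN rats. Of these markers 7 had a positive log2 fold change, while that of Clec4f was -0.28. The sum of neutrophil markers was highest in control 2 and TPN 1, at 24.7 and 39.95 FPKM. Only 2 of 5 were tested, S100a8 and S100a9, and they made up nearly all of it. Mpo, Elane and Ngp lay under the minimum mean and were listed at 0 in TPN 1. Erythroid markers, 4 of 5 measured, summed to 609 to 689 FPKM in the controls and 73.0 to 159 in TPN. Stellate cell and bile duct markers also had lower sums in all TPN rats, though not every marker was lower. Of 6 stellate markers tested, 5 had a negative log2 fold change, while that of Dcn was 0.41. Only 2 of 5 bile duct markers were tested, both lower, and Spp1, under the minimum mean, was highest in TPN 1 (2.70 FPKM). Markers of fat cells summed to at most 0.013 FPKM and those of muscle to at most 0.194, with Adipoq, Plin1, Lep, Acta1 and Mb listed at 0 in all rats. In bulk tissue, fewer cells of a type and less RNA per cell cannot be told apart, and the part of these differences in the results below was not tested.

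Activation and carnitine transfer are the entry to the pathway. Acsl1, the main liver enzyme that joins long-chain fatty acids to coenzyme A, measured 604, 392 and 554 FPKM in controls 1, 2 and 3 and 198, 356 and 287 in TPN 1, 2 and 3. All TPN values lay below all control values, though control 2 and TPN 2 were close. The mean was 1.84-fold lower, 516 ± 111 FPKM in the controls and 280.3 ± 79.4 in the TPN rats (SD, n = 3), with a log2 fold change of -0.90 (SE 0.29, limma adjusted p = 0.324). Cpt1a makes the carnitine esters at the outer mitochondrial membrane and is the step that malonyl-CoA inhibits. It measured 69.2, 87.7 and 88.4 FPKM in the controls and 125, 109 and 72.8 in the TPN rats. TPN 1 and 2 were above all controls and TPN 3 was among them, and the 95% interval of the log2 fold change ran from -0.27 to 0.86. Cpt2, which turns the esters back into acyl-CoA inside, measured 38.9, 32.1 and 34.7 FPKM in the controls and 29.2, 33.0 and 45.6 in the TPN rats. Its means were 35.2 ± 3.43 and 36.0 ± 8.58 FPKM (SD, n = 3), with an interval from -0.47 to 0.48. Crat, which moves acetyl groups between coenzyme A and carnitine, measured 12.7 ± 1.71 FPKM in the controls and 14.8 ± 2.39 in the TPN rats (SD, n = 3). The means of Cpt1a and Crat were thus above control and that of Acsl1 below it, while that of Cpt2 was close to control. The 95% intervals of Cpt1a, Cpt2 and Crat (from -0.20 to 0.62 for Crat) all held 0.

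The acyl-CoA dehydrogenases open each round and differ in the chain length they take. Acadvl, for very long chains, measured 126, 104 and 132 FPKM in the controls and 97.9, 124 and 162 in the TPN rats. Acadl, for long chains, measured 274, 166 and 237 FPKM in the controls and 133, 224 and 237 in the TPN rats. Acadm, for medium chains, measured 241, 155 and 236 FPKM in the controls and 83.3, 156 and 212 in the TPN rats. In all 3 genes the lowest value was that of TPN 1, and the next lowest that of control 2. Acadm had the largest difference of the family, 211 ± 48.3 FPKM against 150.5 ± 64.4 (SD, n = 3), with a log2 fold change of -0.56 (SE 0.36, limma adjusted p = 0.610). It was -0.18 without TPN 1, -0.76 without control 2 and -0.39 without both, so its size depended on which of these rats was included. Acads, for short chains, measured 65.0, 45.3 and 65.5 FPKM in the controls and 26.8, 58.9 and 66.4 in the TPN rats. Acad11, a related dehydrogenase also found in peroxisomes, measured 54.0 ± 4.93 FPKM in the controls and 47.1 ± 7.29 in the TPN rats (SD, n = 3), and its values overlapped.

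The following steps of the round are run by the trifunctional protein, built from Hadha and Hadhb, and by the shorter-chain enzymes Hadh and Acaa2. Hadha, which holds the hydratase and the long-chain dehydrogenase, measured 96.9, 85.6 and 102 FPKM in the controls and 92.1, 96.9 and 114 in the TPN rats. Hadhb, the thiolase subunit, measured 97.8, 81.7 and 102 FPKM in the controls and 99.7, 131 and 154 in the TPN rats. TPN 2 and 3 were above all controls for Hadhb, and TPN 1 was just under control 3. Hadhb had a log2 fold change of 0.43 (SE 0.22, limma adjusted p = 0.501, 95% interval from -0.07 to 0.94), and Hadha one of 0.09 (SE 0.18, limma adjusted p = 0.904). Hadh, the short-chain hydroxyacyl-CoA dehydrogenase, measured 194, 123 and 196 FPKM in the controls and 95.1, 160.1 and 186 in the TPN rats. Acaa2, the thiolase of medium and short chains, measured 283, 159 and 261 FPKM in the controls and 107, 243 and 288 in the TPN rats. Both overlapped widely, with TPN 1 the lowest of the 6 rats and control 2 next, and the log2 fold change of Acaa2 was -0.22 with all rats, 0.21 without TPN 1, -0.47 without control 2 and -0.041 without both.

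Hadha and Hadhb lie head to head on chromosome 6 in the RefSeq annotation of rat build GRCr8, with the Hadha start 301 bases from the Hadhb start. The 250 bases before each start are shown because both genes read out from the same stretch. The 200 bases in capitals belong to both windows and appear as reverse complements of each other. Positions are chr6:31907551-31907800 on the plus strand for Hadha and chr6:31907501-31907750 on the minus strand for Hadhb.
Hadha: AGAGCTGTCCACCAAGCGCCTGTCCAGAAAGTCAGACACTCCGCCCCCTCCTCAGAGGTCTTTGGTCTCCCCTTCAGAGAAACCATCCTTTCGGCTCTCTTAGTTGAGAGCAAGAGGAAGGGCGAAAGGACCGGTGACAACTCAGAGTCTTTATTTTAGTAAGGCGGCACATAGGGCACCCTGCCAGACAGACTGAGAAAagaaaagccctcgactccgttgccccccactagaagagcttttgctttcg
Hadhb: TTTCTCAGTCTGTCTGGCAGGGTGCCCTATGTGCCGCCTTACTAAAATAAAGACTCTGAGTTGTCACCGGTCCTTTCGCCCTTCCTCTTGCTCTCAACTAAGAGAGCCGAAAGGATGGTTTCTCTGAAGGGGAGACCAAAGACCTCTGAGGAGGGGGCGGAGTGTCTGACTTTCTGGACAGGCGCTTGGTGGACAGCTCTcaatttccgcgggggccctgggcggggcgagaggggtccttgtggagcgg

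The ratio of these transcripts differed between the groups without overlap. Hadhb over Hadha was 1.01, 0.954 and 0.996 in controls 1, 2 and 3 and 1.08, 1.35 and 1.35 in TPN 1, 2 and 3. All TPN values lay above all control values, with TPN 1 nearest to the controls. The means were 0.986 ± 0.0284 and 1.26 ± 0.156 (SD, n = 3), and the exact permutation test, 2-sided, gave p = 0.10, the smallest that 3 against 3 rats allow. This ratio and that of Etfa to Etfb were the only ratios computed, and adjusted for both the permutation p was 0.20. Of single features tested, 17.1% were without overlap, and how often ratios of other gene pairs separate the groups was not computed. It sets 2 transcripts of the same library against each other, so a factor common to the whole library cancels.

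**Figure D2:**
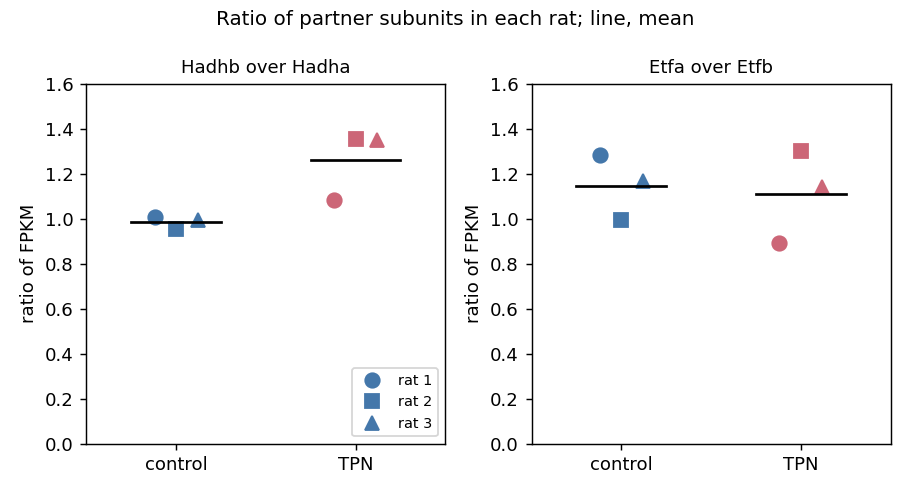
Ratio of FPKM between the partner subunits Hadhb and Hadha (left) and Etfa and Etfb (right) in each rat, with the group mean as a line. The left ratio lies between 0.954 and 1.01 in control and between 1.08 and 1.35 in TPN, while the right one overlaps.

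Electron transfer flavoprotein has the subunits Etfa and Etfb, and Etfdh passes its electrons to ubiquinone. Etfa measured 212, 140.04 and 199 FPKM in the controls and 104, 189 and 205 in the TPN rats. Etfb measured 166, 141 and 171 FPKM in the controls and 117, 145 and 179 in the TPN rats. Etfdh measured 149, 95.6 and 121 FPKM in the controls and 85.8, 129 and 132 in the TPN rats. The log2 fold changes ran from -0.18 to -0.078, and the groups overlapped in all 3 genes, with TPN 1 lowest. Etfa over Etfb was 1.28, 0.992 and 1.17 in control and 0.89, 1.30 and 1.14 in TPN (exact permutation p = 0.80, 2-sided).

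Unsaturated chains need auxiliary enzymes that move or remove double bonds. Decr1, the mitochondrial dienoyl-CoA reductase, measured 126, 101 and 132 FPKM in the controls and 83.9, 146 and 175 in the TPN rats. Eci1, the enoyl-CoA isomerase, measured 101, 81.8 and 117 FPKM in the controls and 103, 114 and 140.5 in the TPN rats. Their log2 fold changes were 0.11 and 0.26, with limma adjusted p of 0.929 and 0.697. TPN 2 and 3 had the highest Decr1 of the 6 rats, and TPN 1 the lowest.

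Peroxisomal members were negative in 5 of 5 log2 fold changes, with a median of -0.25, where 50.9% of all features were positive. Those of Crot (-0.23) and Pex11a (-0.039) changed sign when 1 rat was left out. Ehhadh, the bifunctional enzyme of the classical peroxisomal round, measured 93.1, 77.9 and 85.6 FPKM in the controls and 26.1, 74.8 and 77.5 in the TPN rats. The groups did not overlap, but TPN 2 and 3 lay just under control 2 and only TPN 1 was far below. The mean was 1.44-fold lower, with a log2 fold change of -0.66 (SE 0.40, limma adjusted p = 0.585), and the log2 fold change was -0.16 without TPN 1, -0.73 without control 2 and -0.23 without both. Acaa1a, a peroxisomal thiolase, measured 168, 125 and 165 FPKM in the controls and 67.0, 131 and 159 in the TPN rats. Rat Acaa1a has a near-identical copy, Acaa1b, and how reads shared by such copies were counted is not given in the sources used here, so its value is uncertain. Abcd3, a transporter in the peroxisomal membrane, measured 66.4, 49.3 and 64.8 FPKM in the controls and 40.4, 50.5 and 60.9 in the TPN rats. Crot, which makes carnitine esters of medium chains for export from peroxisomes, measured 87.3, 48.5 and 48.9 FPKM in the controls and 89.2, 51.6 and 27.4 in the TPN rats. Pex11a, a factor in peroxisome division, was low, with 5.51 ± 0.652 FPKM in the controls and 5.41 ± 1.26 in the TPN rats (SD, n = 3). Crot and Pex11a had their lowest value in TPN 3, whereas Ehhadh, Acaa1a and Abcd3 had it in TPN 1.

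The 2 ketone body members pointed in opposite directions. Bdh1, which reduces acetoacetate to beta-hydroxybutyrate, measured 165, 87.9 and 153 FPKM in the controls and 41.2, 90.6 and 66.1 in the TPN rats. TPN 2 lay just above control 2, and all other TPN values were below all controls. The mean was 2.05-fold lower, 135 ± 41.4 FPKM in the controls and 66.0 ± 24.7 in the TPN rats (SD, n = 3), with a log2 fold change of -1.04 (SE 0.35, limma adjusted p = 0.331). Bdh1 stood 9th of the 29 members by mean level in control and 17th in TPN. Acat1, the mitochondrial acetoacetyl-CoA thiolase, measured 114, 66.1 and 121 FPKM in the controls and 62.5, 135 and 154 in the TPN rats. TPN 2 and 3 had the highest Acat1 of the 6 rats and TPN 1 the lowest, so the interval of the log2 fold change was wide, from -0.73 to 1.07.

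The remaining members tune the supply of coenzyme A and the choice of fuel. Vnn1, a pantetheinase that splits a breakdown product of coenzyme A, measured 8.79, 11.1 and 11.5 FPKM in the controls and 17.3, 24.1 and 25.9 in the TPN rats. The lowest TPN rat was well above the highest control. The mean was 2.15-fold higher, 10.5 ± 1.46 FPKM in the controls and 22.5 ± 4.57 in the TPN rats (SD, n = 3), with a log2 fold change of 1.02 (SE 0.20, limma adjusted p = 0.124, 95% interval from 0.56 to 1.48). With sample weights, which give less weight to rats that scatter more, Vnn1 passed the test (limma adjusted p = 0.0219), but that setting also raised the calls over all features from 28 to 299, or 2.63% of them. Over all alternatives its adjusted p ran from 0.0219 to 0.514. The thioesterases Acot1, in the cytosol, and Acot2, in mitochondria, release free fatty acids from coenzyme A. Acot2 measured 12.01, 9.77 and 8.40 FPKM in the controls and 23.9, 11.7 and 10.4 in the TPN rats, and Acot1 1.45, 1.16 and 0.87 in control and 4.22, 1.35 and 0.397 in TPN. TPN 1 was the highest rat for both. TPN 2 and 3 were near control levels for Acot2, and TPN 3 was the lowest rat for Acot1. These genes are close relatives that neighbour each other on chromosome 6, so reads may be split between them. Pdk4, a kinase that shuts off pyruvate dehydrogenase when fat is burned, measured 49.9, 32.7 and 29.8 FPKM in the controls and 37.6, 32.4 and 4.24 in the TPN rats. Only TPN 3 was low, with a log2 fold change of -0.99 (SE 0.77, limma adjusted p = 0.685) that was -0.063 without that rat.

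**Figure D3:**
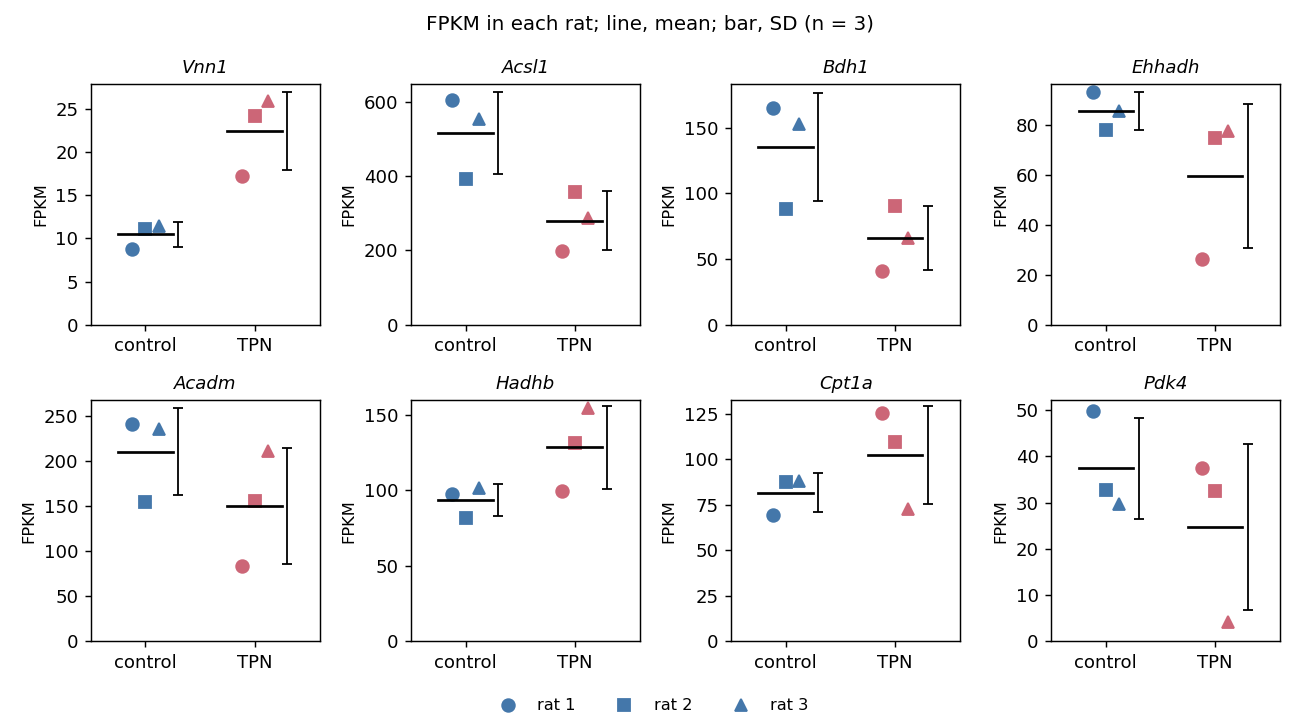
FPKM in each rat for 8 genes, with the group mean as a line and the SD as a bar (n = 3). Vnn1 and Acsl1 separate the groups, Ehhadh and Acadm have their lowest value in TPN 1, and Pdk4 is low only in TPN 3.

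In most members the same 2 rats were the lowest of their groups. The 12 enzymes of the dehydrogenase, later-step and electron transfer roles had control 2 as the lowest control and TPN 1 as the lowest TPN rat in 12 of 12 cases. Over all members both held in 21 of 29, or 72.4%, against 31.6% of all features tested. The 12 genes share these libraries and are not independent of each other. Their summed FPKM was 1962, 1346 and 1880.0 in controls 1, 2 and 3 and 1084, 1702 and 1992 in TPN 1, 2 and 3, so TPN 2 and 3 were within or near the control range. The median member stood at -0.23 in control 2 and -0.43 in TPN 1 on the log2 scale relative to the control mean, where the median of all features stood at -0.063 and -0.09. Control 2 and TPN 1 also had the largest acute-phase share and the lowest sum of hepatocyte markers in their groups. Alb was the largest part of that sum, and the markers Apob, Apoa1 and Serpina1 were instead highest in TPN 1. The part of the acute-phase share or of the marker sum in the pattern was not tested.

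TPN 1 was not low for every member. Among the 3 TPN rats, Cpt1a, Crat, Crot, Acot1, Acot2 and Pdk4 were highest in TPN 1, which is 20.7% of members against 22.8% of all features tested. Over all 6 rats Pdk4 was highest in control 1. Of these 6 genes, all but Crat were lowest of the TPN rats in TPN 3, an order that 5 members (17.2%) and 10.6% of all features had. It was picked out with the values in view.

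**Figure D4:**
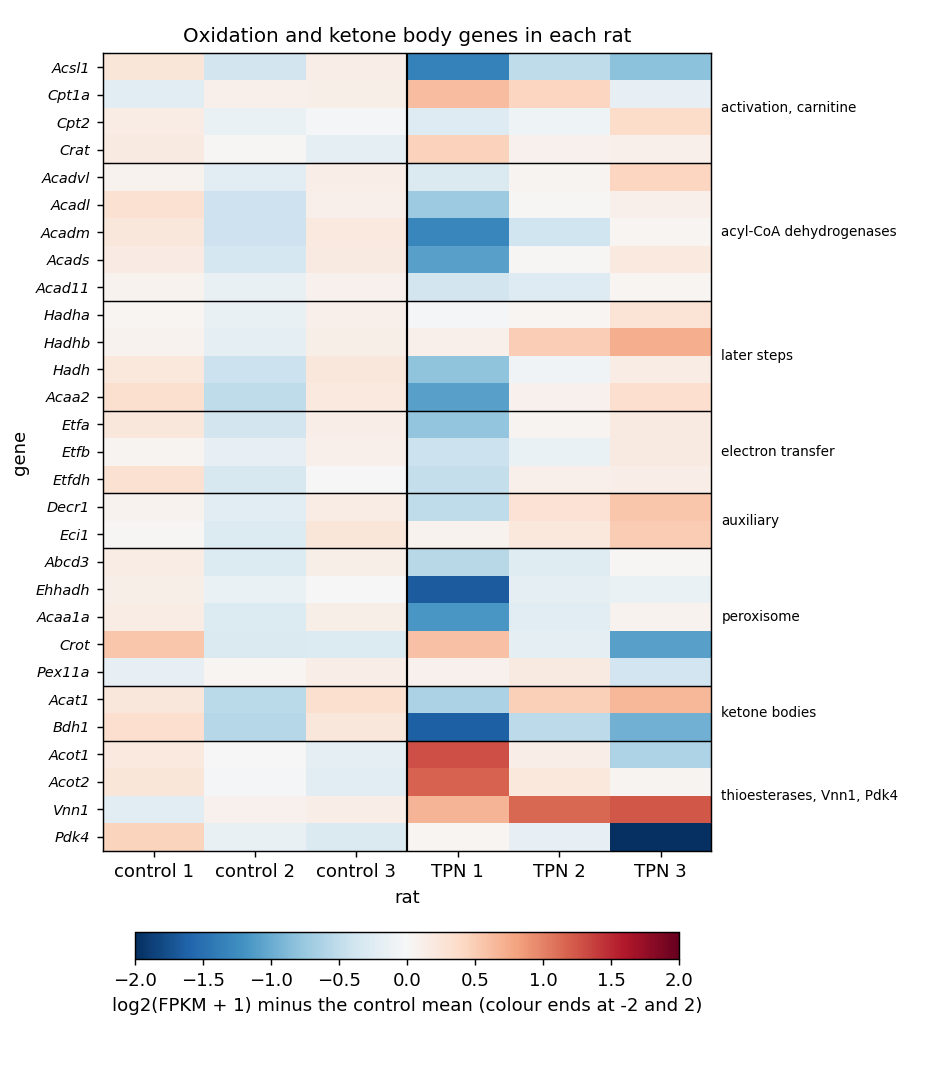
Log2(FPKM + 1) of each gene minus its control mean, in each of the 6 rats (columns), with genes grouped by role (rows). Control 2 and TPN 1 are blue down most of the mitochondrial rows, Acot1 and Acot2 are red in TPN 1, and Vnn1 is red in all TPN rats. Pdk4 in TPN 3 lies beyond the colour scale.

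With control 2 and TPN 1 both left out, a comparison of 2 against 2 rats chosen after seeing the data, still no member passed limma's test. The values then did not overlap in 4 higher members (Vnn1, Hadhb, Decr1 and Acat1), against 24.1% of all features. They did not overlap in 8 lower members (Acsl1, Bdh1, Ehhadh, Acadm, Acaa1a, Abcd3, Hadh and Acad11), against 23.2%. The median was -0.06.

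By level, Acsl1 led the members in both groups and Acot1 was last. In control it was followed by Acaa2, Acadl, Acadm and Etfa, with means of 235, 226, 211 and 184 FPKM. The lowest control value of Acsl1 was above the highest of Acaa2, whereas in TPN the 2 genes overlapped. Of 28 neighbouring pairs in the control order, 22 differed by less than the larger SD of the pair, and 24 of 28 did so in the TPN order, so the order is coarse. Hadhb moved from 16th to 9th. Together the members held 0.491% to 0.681% of all FPKM in the controls and 0.403% to 0.625% in the TPN rats.

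Genes around the pathway gave a similar picture of isolated differences. In 8 lists with 143 genes, 129 were tested, and none passed limma's test over all features. At an unadjusted p under 0.05, 9 were higher (6.98%, against 4.44% of all features) and 13 were lower (10.1%, against 7.01%). A positive log2 fold change was found for 50 (38.8%, against 50.9%), with a median of -0.062. Of the 129 genes, 14 were higher in TPN without overlap, against 8.02% of all features, and 14 were lower, against 9.09%. Genes named below are mainly those with the smallest p of their list. Of 22 other genes of mitochondrial oxidation 6 were positive (median -0.23). Acsf2, an acyl-CoA synthetase, measured 35.5 ± 1.35 FPKM in the controls and 19.7 ± 4.11 in the TPN rats, and Acsl3, another, 9.91 ± 0.541 and 5.78 ± 1.16 (SD, n = 3, limma adjusted p = 0.172 and 0.195). In both, as in Acsl1, all TPN rats were below all controls. Acsm3, a medium-chain synthetase, had a higher mean, 5.48 ± 3.83 against 14.2 ± 4.69 FPKM (limma adjusted p = 0.334). Slc25a20, the carnitine carrier between Cpt1a and Cpt2, measured 58.2 ± 0.463 FPKM in the controls and 56.8 ± 2.97 in the TPN rats.

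Of 26 other genes of peroxisomal oxidation 11 were positive (median -0.077). Hsd17b4, the D-bifunctional protein, measured 179 ± 5.84 FPKM in the controls and 185 ± 43.4 in the TPN rats (SD, n = 3), with its TPN values spread from 140.4 in TPN 1 to 227 in TPN 3. Amacr and Acox3, of branched-chain oxidation, had lower means, 223 ± 20.4 against 156 ± 17.4 FPKM and 84.8 ± 11.6 against 62.2 ± 6.10 (limma adjusted p = 0.378 and 0.424). Slc25a17, a peroxisomal cofactor carrier, had a higher one, 12.7 ± 0.178 against 17.3 ± 2.67 FPKM (limma adjusted p = 0.397). Of 15 genes of peroxisome biogenesis 5 were positive (median -0.032). Pex5, the import receptor, measured 17.8 ± 2.85 FPKM in the controls and 11.9 ± 3.03 in the TPN rats without overlap (limma adjusted p = 0.378). Pex2 measured 12.1 ± 0.914 and 14.96 ± 2.83 FPKM and Pex16 27.7 ± 2.84 and 23.0 ± 4.63.

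The supply side included the 2 abundant carriers of acyl chains in the cytosol. Dbi, the acyl-CoA binding protein, measured 565, 387 and 559.8 FPKM in the controls and 167, 307 and 157 in the TPN rats, a 2.39-fold lower mean without overlap (log2 fold change -1.30, SE 0.31, limma adjusted p = 0.194). Fabp1, the liver fatty acid binding protein, measured 3931 ± 709 FPKM in the controls and 2421 ± 580.2 in the TPN rats, with control 2 just above TPN 2 (SD, n = 3, limma adjusted p = 0.414). Abhd5, the co-activator of the lipase that opens lipid droplets, measured 18.1 ± 2.26 and 27.9 ± 7.71 FPKM (limma adjusted p = 0.393). In this list 6 of 13 genes were positive (median -0.062).

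Malonyl-CoA, the product of acetyl-CoA carboxylase, inhibits Cpt1a. Acacb, the carboxylase at the mitochondrial surface, measured 14.2, 7.83 and 11.3 FPKM in the controls and 1.08, 3.81 and 2.16 in the TPN rats, a 4.74-fold lower mean (log2 fold change -1.90, SE 0.33, limma adjusted p = 0.0882). Every TPN value lay below every control value. Mlycd, which degrades malonyl-CoA, measured 37.8 ± 5.76 FPKM in the controls and 40.1 ± 6.93 in the TPN rats (SD, n = 3), and Acaca, the cytosolic carboxylase, 14.8 ± 2.46 and 20.04 ± 7.91. Prkab1, a subunit of the kinase AMPK that phosphorylates both carboxylases, measured 20.01 ± 1.09 and 23.6 ± 1.09 FPKM (limma adjusted p = 0.601). Acacb passed limma's test with sample weights and with control 2 and TPN 1 left out, where 2.63% and 1.07% of all features passed. Of the 9 genes of this list 4 were positive (median -0.0034).

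Regulators and targets of PPAR-alpha had log2 fold changes of both signs, with 15 of 28 positive (median 0.011). Of the 28, 6 were higher in TPN without overlap, against 8.02% of all features, and 2 were lower, against 9.09%. At an unadjusted limma p under 0.05, 4 were higher, against 4.44% of all features, and 2 were lower, against 7.01%. Ppara measured 15.2 ± 5.20 FPKM in the controls and 14.5 ± 3.08 in the TPN rats (SD, n = 3), and its coactivator Ppargc1a 1.74 ± 0.340 and 3.02 ± 1.04 (limma adjusted p = 0.974 and 0.399). The target Cyp4a2, a fatty acid omega-hydroxylase, measured 43.4, 119 and 46.1 FPKM in the controls and 487, 264 and 163 in the TPN rats, a 4.38-fold higher mean (limma adjusted p = 0.206). It has near-identical relatives, so its value is uncertain, and Cyp4a1 and Cyp4a3 had log2 fold changes of -0.29 and 0.20. Hilpda, a lipid droplet protein, measured 3.79 ± 0.747 and 9.57 ± 3.12 FPKM without overlap (limma adjusted p = 0.161). Fgf21, a hormone of fasting and amino acid shortage, measured 2.33, 3.78 and 2.03 FPKM in the controls and 33.6, 152 and 5.03 in the TPN rats (limma adjusted p = 0.382). Ephx2, a soluble epoxide hydrolase, measured 2.93, 16.8 and 15.0 FPKM in the controls and 1.35, 1.66 and 1.77 in the TPN rats (limma adjusted p = 0.288), and it passed without control 1, the low control. Higher means of Vnn1, Cyp4a2 and Hilpda stood beside lower means of Acsl1 and Ehhadh among known targets of 1 receptor. None of these passed limma's test with all rats in the main setting. Among other genes of this list, log2 fold changes were small for Plin2 and Cyp4a3 (0.12 and 0.20). They were larger in size for Fgf21 (3.12), Cyp4a8 (1.08), Pdk2 (-0.74) and Ephx2.

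Among ketone body genes outside the members 2 of 8 were positive (median -0.17). Slc16a1, which carries ketone bodies and lactate across the membrane, measured 38.2 ± 8.27 FPKM in the controls and 58.4 ± 16.2 in the TPN rats without overlap (SD, n = 3, limma adjusted p = 0.430). Slc16a7, a related carrier, measured 17.4 ± 2.67 and 12.05 ± 4.09 FPKM (limma adjusted p = 0.480). Of 11 genes of pyruvate dehydrogenase and its control 3 were positive (median -0.23). Pdk2, the other abundant liver kinase of this complex, measured 54.3 ± 16.2 and 32.3 ± 10.6 FPKM (limma adjusted p = 0.417). Mpc1, a subunit of the pyruvate carrier, measured 149 ± 33.3 and 101 ± 36.6 FPKM and Pdp2, a phosphatase, 12.02 ± 0.750 and 9.11 ± 2.55.

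**Figure D5:**
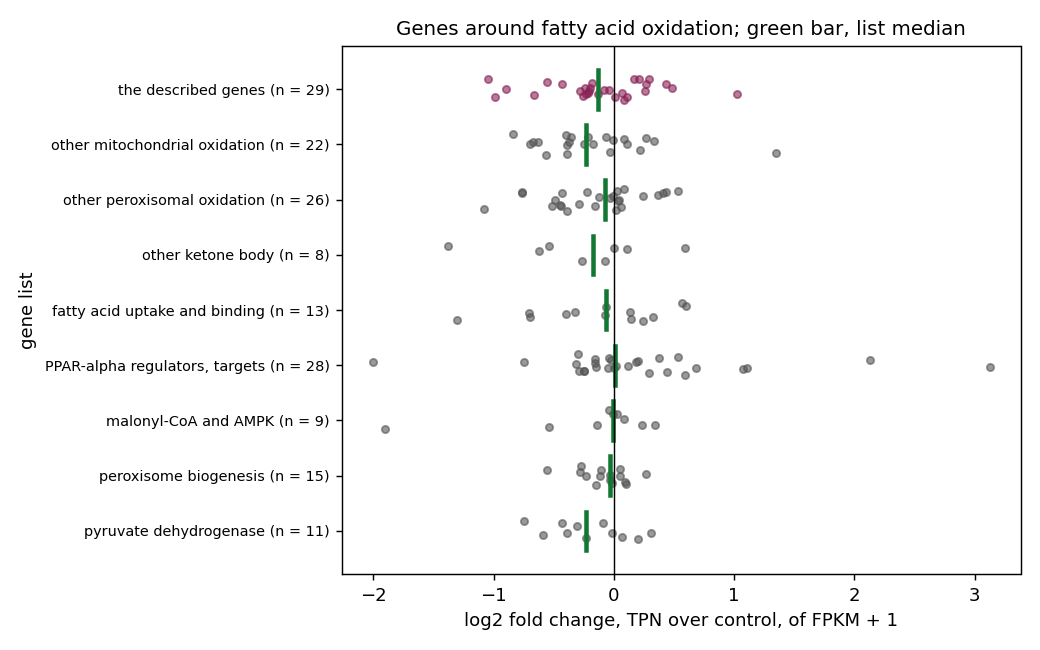
Log2 fold change of FPKM + 1, TPN over control, for each tested gene (points) of the described genes and of 8 surrounding lists (rows), with the list median as a green bar. Medians lie between -0.23 and 0.011, and the points farthest from 0 are Fgf21, Cyp4a2, Ephx2 and Acacb.

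The RefSeq promoter table of GRCr8, with 250 bases before and 50 after the start, held windows for 28 of the 32 listed genes and not for Acadl, Acaa2, Decr1 and Vnn1. The binding letters AGGTCA, searched on both strands, occurred in 5 of 28 member windows, or 17.9%, against 16.2% of 33469 windows. The windows were those of Acad11, Acadvl, Eci1, Eci2 and Hadhb. A direct repeat of such letters with 1 base between, written AGGNCANAGGNCA and searched on both strands, occurred in 0 of 28 member windows and in 0.415% of all windows. A repeat this rare would be missing from most sets of 28 windows, so its absence does not set the members apart. These are matches of letters in a short window and not sites of binding.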

How the data were processed

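RNA-seq was made from the livers of 3 control and 3 TPN rats. Per the labels' protocols, RNA was extracted with TRIzol and libraries followed standard Illumina methods, and per the submitters' processing notes Bowtie 0.12.2, Cufflinks and the build Rnor_6.0 were used, while for their roles, strand and the handling of shared reads nothing is given in the sources used here. FPKM per gene came in 1 table as deposited by the authors. At most 0.905% of ratios between samples of values under 0.3 FPKM fell in 1 bin of width 0.01 (log2), so read numbers could not be worked back, the depth behind each value is unknown, and counting error is not given.

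Columns were matched to titles. Features averaging 1 FPKM or more were tested as log2(FPKM + 1) in limma 3.58.1 (statmod 1.5.0, R 4.3.3), with trend and robust settings, 1 term for the group, and p-values adjusted by Benjamini-Hochberg over all 11362 features, called at 0.05. Log2 fold changes are on this scale, which understates changes of low genes. Folds in words are ratios of mean FPKM. The fit was tested on simulated data. Members and lists were chosen with earlier results of these data known, so no p is adjusted over a list. Named were all members and, in each other list, up to 3 genes with the smallest p and a mean of at least 5 FPKM, plus 10 genes that are always named, of which some are not reported here. Cyp4a1, Cyp4a3, Aacs, Cpt1b, Acsm5 and Cat were added after their values were seen. Alternatives were a pseudocount of 0.1, no filter or a mean of 5 FPKM, 2 scalings, other moderation, sample weights, a replicate block and left-out rats. Promoters were read from RefSeq (GRCr8) with Python 3.11.15, and figures drawn with matplotlib 3.10.9.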

Additional observations from a re-analysis of the deposited data

How the results depend on the processing

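No member passed limma's test under any alternative except sample weights, where 1 did (Vnn1, 3.45% of members, against 2.63% of all features). Of the genes in the other lists 5 passed with sample weights (among them Hilpda, Acsf2, Cyp4a2 and Acacb), where 2.63% of all features passed. With control 2 and TPN 1 left out 2 passed (Cyp4a2 and Acacb), against 1.07% of all features. With 1 rat left out from 0 to 1 passed (Ephx2, without control 1, where 0.0265% of all features passed). The cause was not tested. Members without overlap, 3 in the full data, numbered 7 (24.1%) after quantile normalisation, against 20.6% of all features, 12 (41.4%) with control 2 and TPN 1 left out, against 47.3%, and 4 to 9 with 1 rat left out (13.8% to 31.0%, against 20.9% to 32.9%). The members' median ran from -0.24 (without control 2) to 0.091 (without TPN 1), with 8 to 18 positive.

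Log2 fold changes of 14 members kept their sign in all alternatives, among them those of Vnn1, Acsl1, Bdh1, Ehhadh, Hadhb and Acadm. The other 15 changed sign when 1 rat was left out, and ranged as follows: Acaa2 from -0.49 to 0.21, Acadl from -0.41 to 0.060, Acads from -0.53 to 0.11, Acadvl from -0.12 to 0.24, Acat1 from -0.10 to 0.57, Acot1 from -0.25 to 0.71, Cpt2 from -0.17 to 0.14, Crot from -0.64 to 0.19, Decr1 from -0.11 to 0.42, Etfa from -0.37 to 0.12, Etfb from -0.28 to 0.024, Etfdh from -0.24 to 0.12, Hadh from -0.46 to 0.042, Hadha from -0.0032 to 0.15, and Pex11a from -0.15 to 0.13. Signs also changed for Acot1 (-0.24) with control 2 and TPN 1 left out, for Etfdh (0.044) after quantile normalisation, and for Acadvl (-0.010), Cpt2 (-0.089) and Pex11a (0.10) with sample weights. Acot1 has no value at a minimum mean of 5 FPKM.

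Control and TPN rats of the same number share no more than the number in the labels, and their deviations from the group means correlated at -0.21, -0.14 and 0.32. With the replicate number as a block, 0 members passed, the median was -0.13 and 58 features passed in all, against 28. Not every rat correlated best with its own number. The precision is set by 3 rats a group, and since depth is unknown no limit from read counting can be given.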

Other observations

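A few genes next to the pathway were picked with their values in view. Acsm5, a medium-chain acyl-CoA synthetase, measured 94.7, 12.02 and 149.7 FPKM in controls 1, 2 and 3 and 3.97, 219 and 169 in TPN 1, 2 and 3. Its low values belong to control 2 and TPN 1, the rats that were lowest in most mitochondrial members, and its log2 fold change was -0.0051 (SE 1.69). Cat, the catalase that removes the hydrogen peroxide of peroxisomal oxidation, measured 885, 528 and 949.5 FPKM in control and 172, 485 and 559 in TPN (limma adjusted p = 0.443).

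Cpt1b, the muscle form of the carnitine enzyme, lay under the minimum mean and was not tested. It measured 0.136, 0.138 and 0.126 FPKM in control and 0.432, 0.727 and 0.866 in TPN, without overlap. Of the measured muscle markers Acta1 and Mb were listed at 0 in all rats, Ckm reached at most 0.0597 FPKM, and Tnnt3 was 0.0335, 0 and 0.0709 FPKM in control and 0.0579, 0.0860 and 0.194 in TPN, highest in TPN 3 as Cpt1b was, and the part of muscle RNA in the difference was not tested. Aacs, which returns acetoacetate to cytosolic acetoacetyl-CoA for lipid synthesis, measured 2.29, 6.68 and 2.58 FPKM in control and 0.794, 0.537 and 0.861 in TPN, without overlap (limma adjusted p = 0.182).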
